A study of Homo sapiens with 6 samples.

Results

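The nuclear lamina genes followed here are 10 rows of a deposited RNA-seq table: the lamin B receptor LBR, the lamins LMNA, LMNB1 and LMNB2, and the nuclear envelope genes EMD, TMPO, BANF1, LEMD3, SUN1 and SUN2. They were found by exact gene name, and all 10 were present among the table's 27887 rows. The 10 names were selected with earlier results of the same comparison known, the higher level of LBR among them, so their values between the groups are a description and carry no test. The study asked which genes regulate cholesterol metabolism in esophageal squamous cell carcinoma. Its cells were KYSE450, an established human line of that cancer, grown in RPMI1640 with serum. The shHMGB2 group holds 3 libraries from HMGB2-knockdown cells infected with an shHMGB2 virus, which carries a short hairpin RNA against HMGB2. The mock group holds 3 libraries from cells labelled WT and given a mock virus infection. The labels do not give the number of hairpins or say whether the mock virus carried one. They also leave unsaid whether replicates are separate cultures; p-values therefore rest on differences among these libraries, which could be technical only.

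The lamina is a meshwork of lamin filaments under the inner nuclear membrane. LMNA encodes the A-type lamins A and C, while LMNB1 and LMNB2 encode B-type lamins that keep a lipid anchor. LBR spans the inner membrane, holds B-type lamins and heterochromatin protein 1 at its nucleoplasmic end, and has a sterol C14 reductase domain that acts in cholesterol synthesis. LBR and the A-type lamins are known as alternative tethers that hold heterochromatin at the nuclear edge. Emerin, the LAP2 proteins and MAN1 share a LEM domain that binds the small DNA-bridging protein made from BANF1. The SUN proteins cross the inner nuclear membrane and link the lamina with the cytoskeleton through nesprins, their partners in the outer membrane.

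The sequences before the transcription start of the 4 members with the largest fitted changes are printed to show what kind of promoter stands at each. They are RefSeq windows on GRCh38.p14 that run from 250 bases before to 50 bases after an annotated start, 300 bases each, 5′ to 3′ on the gene's strand. Capitals mark the matches, on either strand, to 5 short motifs: the AP-1 site TGACTCA, the CCAAT box, the GC box GGGCGG bound by Sp1, TGACGT from the cyclic AMP response element, and the cell cycle element TTTGAA. The LBR window is chr1:225428772-225429071 on the minus strand. LMNA's first window is chr1:156082323-156082622 on the plus strand. LMNA's windows 2 and 3, chr1:156082631-156082930 and chr1:156106466-156106765, belong to later starts and are not printed. LMNB1's windows are chr5:126776373-126776672 and chr5:126776886-126777185 on the plus strand, and EMD's is chrX:154379045-154379344 on the plus strand.
LBR: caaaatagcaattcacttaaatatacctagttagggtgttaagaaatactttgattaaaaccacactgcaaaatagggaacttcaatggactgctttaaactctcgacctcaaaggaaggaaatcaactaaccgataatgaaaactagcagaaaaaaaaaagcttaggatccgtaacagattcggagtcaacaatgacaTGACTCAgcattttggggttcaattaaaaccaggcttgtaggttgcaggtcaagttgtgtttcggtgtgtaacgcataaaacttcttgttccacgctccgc
LMNA, first start: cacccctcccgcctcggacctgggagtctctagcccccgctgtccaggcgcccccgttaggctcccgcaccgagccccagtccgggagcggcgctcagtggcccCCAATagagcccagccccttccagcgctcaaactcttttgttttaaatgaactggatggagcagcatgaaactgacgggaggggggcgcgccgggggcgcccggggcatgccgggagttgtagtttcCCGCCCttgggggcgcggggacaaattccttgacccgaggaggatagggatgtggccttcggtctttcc
LMNB1, first start: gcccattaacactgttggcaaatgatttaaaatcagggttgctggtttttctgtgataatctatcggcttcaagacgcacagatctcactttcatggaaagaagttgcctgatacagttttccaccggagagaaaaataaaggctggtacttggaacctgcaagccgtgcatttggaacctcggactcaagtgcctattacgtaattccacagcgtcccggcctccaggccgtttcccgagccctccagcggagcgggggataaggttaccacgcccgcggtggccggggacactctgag
LMNB1, second start: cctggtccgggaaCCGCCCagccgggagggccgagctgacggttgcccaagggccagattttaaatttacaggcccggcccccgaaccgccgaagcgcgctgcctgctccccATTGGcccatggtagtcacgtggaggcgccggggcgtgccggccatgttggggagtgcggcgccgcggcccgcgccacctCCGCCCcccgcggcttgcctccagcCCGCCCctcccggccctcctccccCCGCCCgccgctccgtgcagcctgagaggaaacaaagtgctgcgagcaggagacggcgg
EMD: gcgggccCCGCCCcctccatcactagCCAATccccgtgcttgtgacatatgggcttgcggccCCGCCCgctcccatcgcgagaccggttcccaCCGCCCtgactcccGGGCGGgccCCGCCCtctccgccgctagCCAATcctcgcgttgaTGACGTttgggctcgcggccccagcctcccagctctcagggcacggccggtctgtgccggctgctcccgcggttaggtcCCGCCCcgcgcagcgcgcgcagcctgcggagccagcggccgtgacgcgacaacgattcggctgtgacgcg

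LBR's window stood apart in base composition, with 38.3% G and C against 52.0% to 77.0% in the other 14 member windows. It held 1 AP-1 match, 51 to 45 bases before the start, and no CCAAT or GC box. EMD's window, by contrast, held 2 CCAAT boxes, 6 GC boxes and 1 TGACGT. The second LMNB1 window held 4 GC boxes and 1 CCAAT box read on the other strand as ATTGG, while the first held none of the 5 motifs. Of the 15 windows found for 9 members, 2 held TGACTCA (LBR and the second SUN2 window), 7 CCAAT, 12 GGGCGG, 1 TGACGT and 2 TTTGAA. Among all 35116 windows in the RefSeq table, the shares were 4.95%, 34.6%, 45.0%, 7.98% and 15.2%, in the same order. SUN1 had no window. The motifs were picked after the windows had been read, and a match describes letters only.

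HMGB2, the hairpin's target and a DNA-bending chromatin protein, had 22.1, 24.5 and 27.8 FPKM in the shHMGB2 libraries and 115.8, 111.4 and 108.6 FPKM in the mock libraries. FPKM counts fragments scaled to transcript length and to the size of the library. The HMGB2 means were 24.8 ± 2.84 in shHMGB2 and 112 ± 3.60 in mock (SD, n = 3 each), with limma adjusted p = 0.000113. Summed FPKM ran from 740684 to 829437 per library, and log2 profiles correlated at Pearson's r of 0.985 to 0.989 inside a group and 0.978 to 0.987 across the groups. Read depth per library is not in the table. Relative size factors read from the authors' group values put shHMGB2 replicate 1 at 1.88 times and replicate 2 at 1.64 times replicate 3, and mock replicates 1 and 3 at 1.05 and 1.39 times mock replicate 2. All 12 squamous epithelial markers were measured, summing to 7134 to 7885 FPKM in shHMGB2 and 8263 to 8647 FPKM in mock. Leukocyte markers summed to 0.16 to 0.35 FPKM in shHMGB2 and 0.05 to 0.14 in mock, with each of the 5 in the table under 1 FPKM. Fibroblast markers summed to 3.97 to 4.43 FPKM in shHMGB2 and 2.94 to 3.69 in mock, of which LUM made up most and the other 6, collagens included, were under 1 FPKM in every library. Endothelial markers summed to 2.39 to 2.81 FPKM in shHMGB2 and 1.88 to 2.58 in mock, and 5 of 6 were under 1 FPKM. The part of any of these lists in the results was not tested.

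All 10 members were well above the minimum mean of 1 FPKM that 13409 genes passed. In the fit over those genes (limma on log2(FPKM + 1), threshold an adjusted p of 0.05), LBR was higher in shHMGB2, LMNA was lower, and 8 members did not pass. Of all genes tested, 6.75% passed, 3.30% as higher and 3.45% as lower, or 442 and 463 genes. Under median-of-ratios scaling that split was 349 higher and 571 lower. The 3 shHMGB2 values and the 3 mock values did not overlap for 5 members, LBR, LMNA, LMNB1, EMD and SUN2, against 35.6% of all genes tested. These counts describe genes selected on the same contrast and are given for scale. Fitted log2 fold changes were positive for 7 members and negative for 3, with a median of 0.06, against 0.04 over all genes tested.

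**Figure D1:**
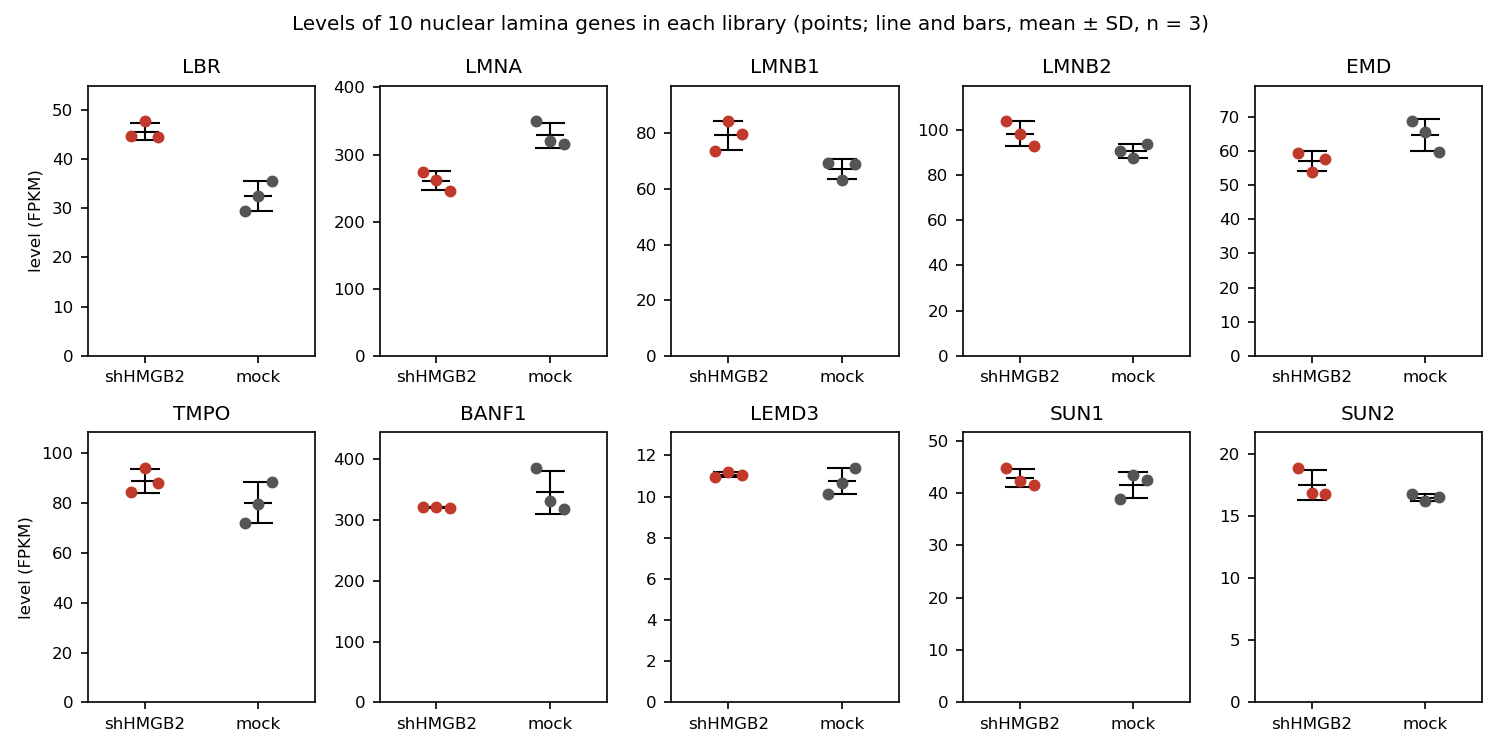
FPKM (vertical axes, from 0) of the 10 genes in each library, shHMGB2 left in red and mock right in grey; lines and bars are the mean ± SD of 3 libraries. The groups stand apart for LBR, LMNA, LMNB1, EMD and, narrowly, SUN2, and overlap for the other 5.

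LBR had 44.5, 47.6 and 44.4 FPKM in the shHMGB2 libraries, against 29.5, 32.5 and 35.5 FPKM in the mock libraries. Every shHMGB2 library was above every mock library, and the mock libraries were the more spread out. The means were 45.5 ± 1.81 FPKM in shHMGB2 and 32.5 ± 3.01 FPKM in mock (SD, n = 3 each), 1.40 times as high in shHMGB2. On the log2(FPKM + 1) scale the difference was 0.48 (SE 0.077, 95% interval 0.30 to 0.66). It was positive under all 17 alternatives, 1 of which is the authors' deposited table, from 0.40 to 0.54. LBR no longer passed the threshold when shHMGB2 replicate 1, 2 or 3 or mock replicate 2 was left out, with differences of 0.49, 0.45, 0.50 and 0.48. The gene lies at chr1:225401502-225428821 on GRCh38.p14. Its messenger has 37.8% G and C, which puts it in the lowest of 5 equal bins of genes, where the median log2 fold change was 0.12. With the trend on G and C removed, LBR's difference was 0.40. In bulk RNA, less RNA per cell and fewer cells with the RNA cannot be told apart, and this holds for all genes below.

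LMNA moved the other way. It had 274, 262 and 246 FPKM in shHMGB2 and 350, 320 and 316 FPKM in mock. The lowest mock library was above the highest shHMGB2 library. Means were 261 ± 14.0 FPKM in shHMGB2 and 329 ± 18.3 FPKM in mock (SD, n = 3 each), so the level was 0.794 times the mock mean, with a log2 difference of -0.33 (SE 0.067, 95% interval -0.49 to -0.18). The table has 1 row for LMNA, so lamin A and lamin C messengers are not separated. LMNA lies at chr1:156082573-156140081, on the same chromosome as LBR. Its longest messenger is 61.5% G and C, in the highest of these bins, where the median log2 fold change was -0.05, and with that trend removed its difference was -0.25. The difference was negative in all 17 alternatives, from -0.37 to -0.25 in the limma fits and -0.41 in the authors' deposited table. LMNA no longer passed with no filter on low values, or without shHMGB2 replicate 1, 2 or 3 or mock replicate 2, where leaving out a library gave differences of -0.37, -0.34, -0.29 and -0.35.

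The B-type lamins did not pass as reported. LMNB1 had 73.6, 84.3 and 79.6 FPKM in shHMGB2 and 69.2, 63.2 and 69.1 FPKM in mock. The groups did not overlap, though shHMGB2 replicate 1 was close to the mock libraries. Its means were 79.2 ± 5.34 in shHMGB2 and 67.1 ± 3.45 in mock (SD, n = 3 each), a log2 difference of 0.23 (95% interval 0.07 to 0.40). LMNB2 had 104, 98.2 and 92.6 FPKM in shHMGB2 and 90.7, 87.6 and 93.7 FPKM in mock. Here shHMGB2 replicate 3 fell among the mock values, and the log2 difference was 0.11 (95% interval -0.03 to 0.26), or 0.07 without shHMGB2 replicate 1. With the length or the G and C trend removed, LMNB1's difference was 0.24 and 0.25 and passed. LMNB2's was 0.08 and did not pass with the length trend removed, and was 0.20 and passed with the G and C trend removed. Neither gene passed with any 1 library left out. LMNB1 lies at chr5:126776623-126837020 and LMNB2 at chr19:2428166-2456959.

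**Figure D2:**
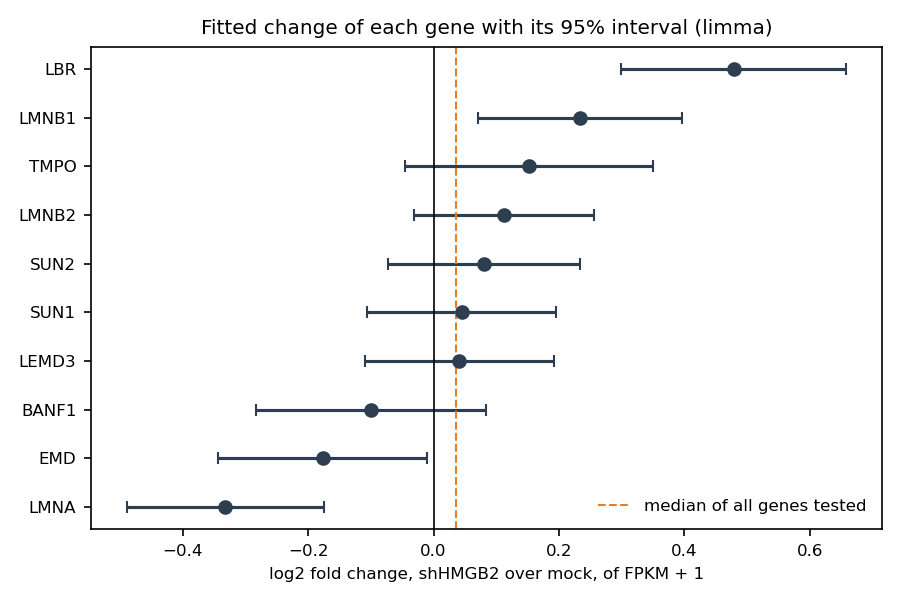
Fitted log2 fold change of FPKM + 1, shHMGB2 over mock (horizontal axis), of each of the 10 genes, with 95% intervals from limma; the dashed line is the median of all genes tested. LBR at 0.48 and LMNA at -0.33 are the ends of the range. The intervals, which are not adjusted for the number of genes, leave out 0 for LBR, LMNA, LMNB1 and EMD. LMNB1 and EMD did not pass the adjusted threshold. Of the 13409 genes tested, 3745 had an unadjusted limma p under 0.05.

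Ratios of the lamins within a library restate the levels above: LMNA was lower, LMNB1 and LMNB2 had positive differences that did not pass, and a higher ratio over LMNA follows from those values. LMNB1 over LMNA, both per length, was 0.268, 0.322 and 0.323 in the shHMGB2 libraries and 0.198, 0.198 and 0.218 in the mock libraries. Each shHMGB2 library had the higher ratio, 1.49 times as high on average. B-type lamins made up 39.3%, 41.1% and 41.2% of the summed lamin FPKM in shHMGB2 and 31.4%, 32.0% and 34.0% in mock, means of 40.5 ± 1.06% and 32.5 ± 1.34% (SD, n = 3 each). The sum of the 3 lamins was 438 ± 17.5 FPKM in shHMGB2 and 486 ± 20.5 FPKM in mock (SD, n = 3 each), without overlap. LBR over LMNA, the proportion of the alternative tethers, averaged 0.175 ± 0.011 in shHMGB2 and 0.0993 ± 0.014 in mock (SD, n = 3 each), 1.76 times as high in shHMGB2. LBR over LMNB1 plus LMNB2 was 0.257 ± 0.0051 in shHMGB2 and 0.206 ± 0.019 in mock (SD, n = 3 each), again without overlap. These ratios describe messenger levels and were formed after the values were known.

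**Figure D3:**
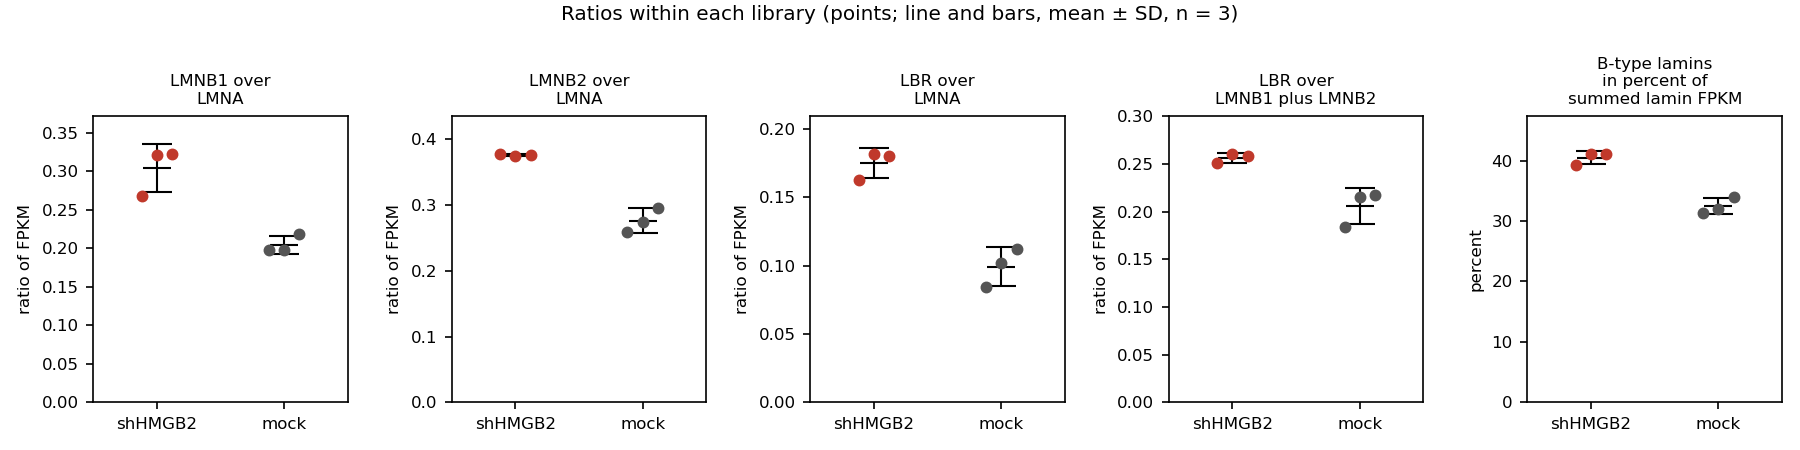
Ratios of FPKM within each library, and the B-type percent of summed lamin FPKM (vertical axes, from 0), shHMGB2 left in red and mock right in grey; lines and bars are the mean ± SD of 3 libraries. The groups do not overlap in any of the 5 panels, and LBR over LMNA differs most, 0.175 in shHMGB2 against 0.0993 in mock.

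Among the LEM domain genes and their partner, none passed. EMD, which encodes emerin, had 59.5, 53.7 and 57.8 FPKM in shHMGB2 and 68.7, 65.6 and 59.6 FPKM in mock. The groups stood apart by less than 0.1 FPKM, between shHMGB2 replicate 1 and mock replicate 3. Its log2 difference was -0.18 (95% interval -0.34 to -0.01). EMD messengers are in the shortest of 5 equal bins by length, where the median log2 fold change was -0.06, and with the trend on length removed the difference was -0.07. TMPO, which encodes the LAP2 proteins, had 84.5, 94.3 and 88.0 FPKM in shHMGB2 and 72.1, 79.7 and 88.6 FPKM in mock, with mock replicate 3 above 2 of the shHMGB2 libraries. The log2 difference of TMPO was 0.15 (95% interval -0.05 to 0.35), and 0.08 without mock replicate 1. TMPO-AS1, a transcript that overlaps TMPO's start, had 2.24, 2.36 and 2.03 FPKM in shHMGB2 and 1.69, 1.88 and 1.49 FPKM in mock. The sources used here do not say whether counting used strand, so reads of the overlapping part cannot be told apart.

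BANF1, the barrier-to-autointegration factor, was even across the shHMGB2 libraries, with 321, 322 and 320 FPKM (SD 0.981), while mock had 386, 331 and 319 FPKM. Mock replicate 1 alone set the mock mean apart: without it the log2 difference was -0.02, against -0.10 with it. LEMD3, which encodes MAN1, had 11.0, 11.2 and 11.1 FPKM in shHMGB2 and 10.1, 10.7 and 11.4 FPKM in mock. It had the lowest levels of the 10 genes, and its groups overlapped (log2 difference 0.04, or 0.0034 without mock replicate 1). EMD lies at chrX:154379295-154381523, TMPO at chr12:98515573-98550351, BANF1 at chr11:66002503-66004149 and LEMD3 at chr12:65169583-65248355.

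The SUN genes differed little. SUN1 had 44.8, 42.2 and 41.5 FPKM in shHMGB2 and 38.8, 43.4 and 42.4 FPKM in mock, which overlapped apart from mock replicate 1, the lowest library. SUN2 had 18.9, 16.9 and 16.8 FPKM in shHMGB2 and 16.8, 16.2 and 16.6 FPKM in mock. Its groups stood apart by less than 0.1 FPKM, and shHMGB2 replicate 1 was the high library. The log2 differences were 0.04 for SUN1 and 0.08 for SUN2 (95% interval -0.07 to 0.23). Without shHMGB2 replicate 1 SUN2's was 0.03, and without mock replicate 1 that of SUN1 was -0.0028. SUN1 over SUN2 overlapped between the groups, with means of 2.45 in shHMGB2 and 2.52 in mock. SUN1 lies at chr7:815557-874934. SUN2 lies at chr22:38734734-38755998 and overlaps GTPBP1, which averaged 15.1 FPKM, so some reads could be assigned to either.

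Ordered by mean FPKM, the shHMGB2 libraries gave BANF1, LMNA, LMNB2, TMPO, LMNB1, EMD, LBR, SUN1, SUN2 and LEMD3. The ranges of neighbours overlapped for LMNB2 with TMPO and for LBR with SUN1. In mock the order was the same except that LBR stood at rank 8, after SUN1, and not at rank 7. There, neighbours overlapped for BANF1 with LMNA, LMNB2 with TMPO, and LMNB1 with EMD. LBR thus overlapped SUN1 in shHMGB2 and lay wholly below it in mock.

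Over the 6 libraries the genes whose log2 levels ran closest to LBR were FOXN3, a forkhead transcription factor (Pearson's r = 0.999), ERLIN2, an endoplasmic reticulum protein (0.998), and MTUS1, a microtubule-associated protein (0.997). FOXN3 had 2.78, 2.95 and 2.73 FPKM in shHMGB2 and 1.85, 2.04 and 2.27 FPKM in mock, repeating LBR's order of libraries. The r values take in the difference between the groups and rest on 6 points, so they are a description. Among the members, r with LBR was -0.95 for LMNA, -0.92 for EMD, 0.85 for LMNB1 and 0.84 for TMPO, and the other 5 lay between -0.72 and 0.73. Ranked from the highest r downward among the genes tested, LMNB1 stood at 2028, TMPO at 2197, EMD at 12846 and LMNA at 13070. Many other genes thus had an r at least as high or as low.

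In the authors' deposited table, 3 of the 10 members had an adjusted p under 0.05, and 15.4% of all genes with such a value did. They were LBR, LMNA and EMD, with log2 fold changes of 0.40, -0.41 and -0.26 in the authors' deposited table. None of the 10 was marked there as Up or Down. LMNB1, LMNB2 and TMPO had 0.17, 0.06 and 0.09 in the authors' deposited table, each nearer to 0 than in the limma fit. BANF1 had -0.21 in the authors' deposited table, farther from 0 than in the limma fit.

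**Figure D4:**
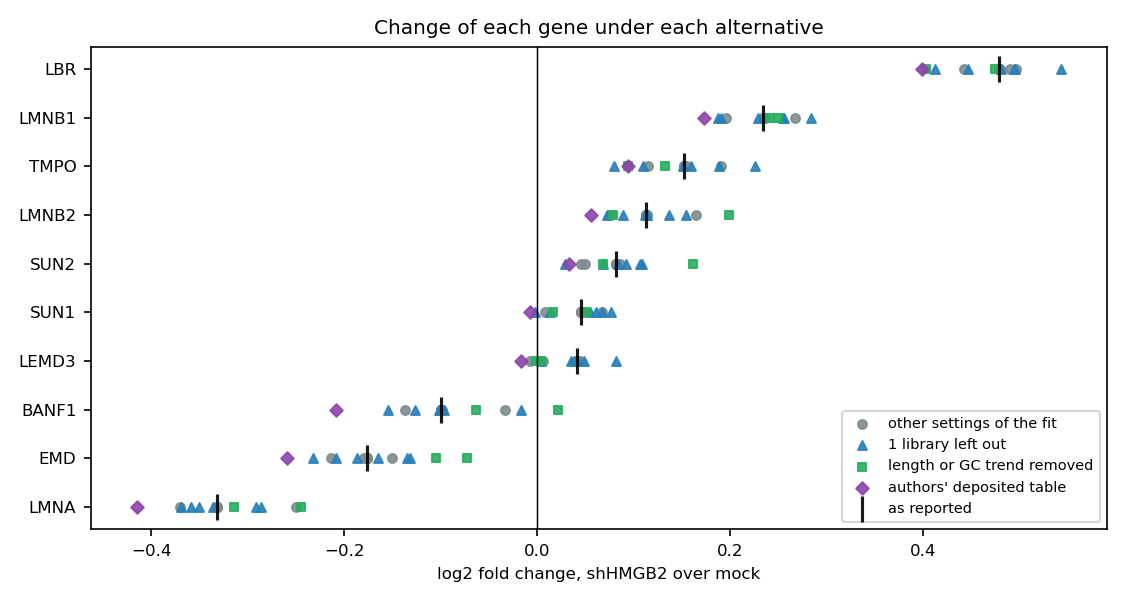
Log2 fold change, shHMGB2 over mock (horizontal axis), of each gene as reported (black bars) and under 17 alternatives (points), among them the authors' deposited table (diamonds). LBR lies between 0.40 and 0.54 and LMNA between -0.37 and -0.25 in the limma fits, with -0.41 for LMNA in the authors' deposited table, while BANF1, LEMD3 and SUN1 have values on both sides of 0.

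Genes that work beside the lamina were read as 9 lists, whose 117 measured genes held 7 higher, 2 lower and 108 not past the threshold (median log2 fold change 0.08). That is 7.69% called over the 9 lists together, near the 6.75% of all genes tested. The pooled count sets these lists no further apart than genes in general, and the genes named below are single calls. Of 12 inner nuclear membrane and lamina partners, 2 were higher and 10 did not pass (median 0.03). NEMP1, a membrane protein of the inner envelope, had 22.7 ± 0.239 FPKM in shHMGB2 and 17.8 ± 1.75 in mock (SD, n = 3 each; limma adjusted p = 0.0464). TMEM43, which binds emerin and lamins, had 30.0 ± 0.845 FPKM in shHMGB2 and 24.6 ± 1.09 in mock (SD, n = 3 each; limma adjusted p = 0.0371). Neither passed without shHMGB2 replicate 1, 2 or 3 or mock replicate 2 (limma adjusted p from 0.0808 to 0.150), nor under median-of-ratios scaling (limma adjusted p = 0.0542 and 0.0544), and TMEM43 also not without mock replicate 1 or 3. The LEM domain gene LEMD2 had a log2 difference of -0.09 and its relative ANKLE2 one of 0.02.

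Heterochromatin genes held 2 higher and 11 that did not pass among 13 (median 0.10). CBX5, which encodes the heterochromatin protein 1 alpha that LBR binds, had 25.5, 25.0 and 21.7 FPKM in shHMGB2 and 14.7, 15.8 and 17.3 FPKM in mock. The groups were well apart, with means of 24.1 ± 2.05 in shHMGB2 and 15.9 ± 1.32 in mock (SD, n = 3 each) and a log2 difference of 0.57 (SE 0.087, limma adjusted p = 0.0117). CBX5's longest messenger has 11528 bases, in the longest of 5 equal bins, where the median log2 fold change was 0.14. With the trend on length removed, its difference was 0.44. CBX1, the beta form, had 74.7 ± 2.56 FPKM in shHMGB2 and 62.6 ± 1.76 in mock (SD, n = 3 each; limma adjusted p = 0.0384). CBX3, the gamma form, had a log2 difference of 0.04 and did not pass (limma adjusted p = 0.712). CBX5 did not pass without shHMGB2 replicate 1 or 2 or mock replicate 2 (limma adjusted p from 0.0519 to 0.0614). CBX1 did not pass when any 1 library was left out (limma adjusted p from 0.0522 to 0.146). It also did not pass with no filter on low values or no mean-variance trend (limma adjusted p = 0.0595 and 0.0597). In the authors' deposited table its adjusted p is 0.0526.

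Pore and transport genes gave 1 call in each direction. NUP210, a membrane nucleoporin, was the 1 of 31 pore genes that passed (30 did not, median 0.12), with 27.3 ± 2.54 FPKM in shHMGB2 and 21.1 ± 1.04 in mock (SD, n = 3 each; limma adjusted p = 0.0416). It did not pass when any 1 library was left out (limma adjusted p from 0.0518 to 0.134). NUP210's log2 difference was 0.36 as reported and 0.27 with the trend on length removed. Of 22 genes of envelope breakdown and reassembly, 1 was lower and 21 did not pass (median -0.04). That gene was RAN, the GTPase that drives nuclear transport and envelope assembly, with 176, 192 and 193 FPKM in shHMGB2 and 333, 311 and 299 FPKM in mock. No library of either group came near the other group, and the log2 difference was -0.75 (SE 0.066, limma adjusted p = 0.00154). RAN passed under all 17 alternatives, the authors' deposited table included.

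The remaining envelope lists held no call in limma. Of 6 measured LINC complex partners 0 passed (median 0.17), and the giant nesprin SYNE2 had the smallest p, with 10.1 ± 0.827 FPKM in shHMGB2 and 8.25 ± 0.442 in mock (SD, n = 3 each; limma adjusted p = 0.0870). Its log2 difference was 0.26 as reported and 0.09 with the trend on length removed, while the authors' deposited table gives 0.55 with an adjusted p of 0.00409. The other 4 genes of the list, SYNE1, SYNE3, SYNE4 and SUN3, were under 1 FPKM in every library. Of 5 lamin maturation enzymes 0 passed (median 0.06), the nearest being ICMT, which methylates the lamin tail (limma adjusted p = 0.238), and ZMPSTE24, which cuts prelamin A, had a log2 difference of -0.11. Sterol enzymes after lanosterol were searched because LBR carries out a step of that pathway, and 0 of 9 passed (median 0.02). TM7SF2, the other C14 reductase of the pathway, had 3.23, 3.28 and 3.35 FPKM in shHMGB2 and 2.45, 2.68 and 2.56 FPKM in mock. Its groups did not overlap, its log2 difference was 0.27 and it did not pass (limma adjusted p = 0.0734). It passed with no mean-variance trend (limma adjusted p = 0.0464) and with the length or the G and C trend removed (0.0222 and 0.0182). With any 1 library left out it did not pass (limma adjusted p from 0.105 to 0.196). Nor did it in the authors' deposited table, where its adjusted p is 0.464. DHCR7, the last enzyme of that route, had a log2 difference of 0.02.

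**Figure D5:**
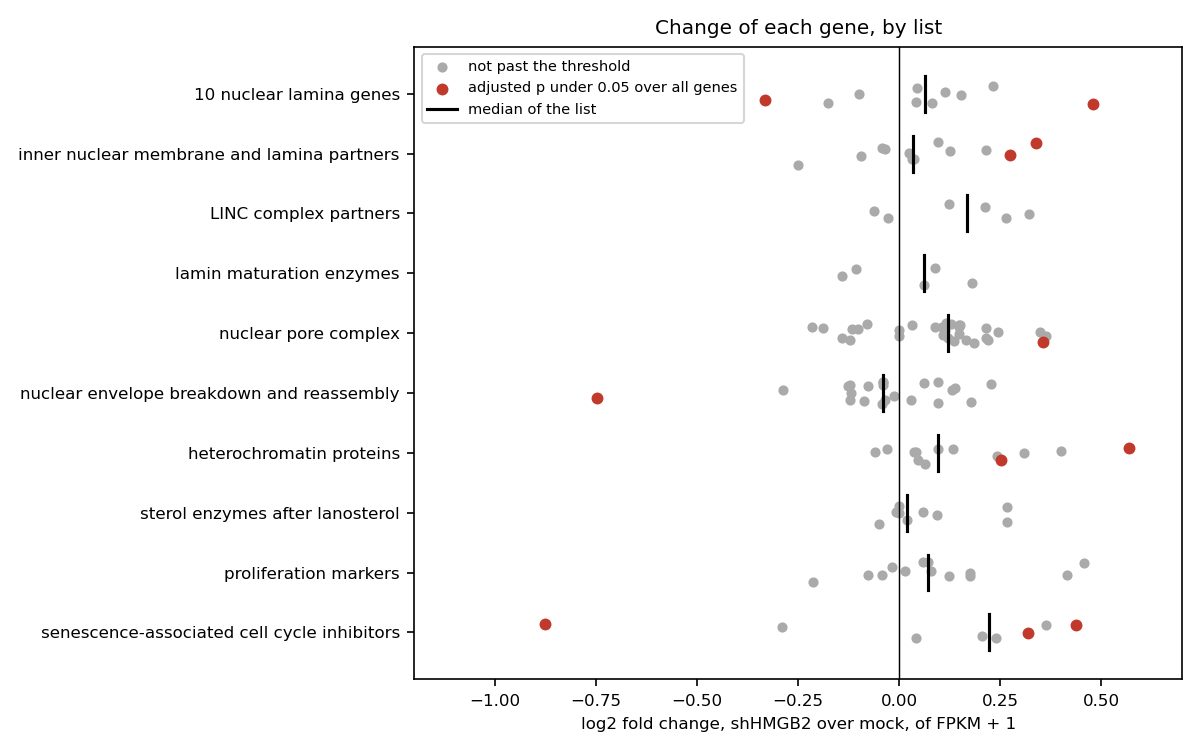
Log2 fold change of FPKM + 1, shHMGB2 over mock (horizontal axis), of each gene tested in the 10 nuclear lamina genes and the 9 related lists; red points passed the threshold over all genes, grey points did not, and black bars are list medians. Most points lie within 0.4 of 0, with RAN at -0.75 and CDKN1A at -0.88 on the left and CBX5 at 0.57 on the right.

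Loss of LMNB1 is widely used as a sign of senescence. Inhibitors and other genes tied to that state, and proliferation markers, were therefore read beside it. Of 13 proliferation markers 0 passed (median 0.07), with MKI67, a protein of mitotic chromosome surfaces, at 37.6 ± 3.31 FPKM in shHMGB2 and 27.2 ± 4.03 in mock (SD, n = 3 each; limma adjusted p = 0.0578). MKI67 passed in 5 alternatives: a mean of at least 5 FPKM (limma adjusted p = 0.0393), mock replicate 3 left out (0.0446), the length or the G and C trend removed (0.0143 and 0.0178), and the authors' deposited table (0.000937). Its log2 difference was 0.46 as reported and 0.32 with the trend on length removed. The senescence-associated list has 9 genes, among them GLB1, which is not an inhibitor. Its gene CDKN2A was under 1 FPKM in every library and was not tested. Among the 8 genes tested, 2 were higher, 1 was lower and 5 did not pass (median 0.22). That is 37.5% called, against 6.75% of all genes tested, again in a short list chosen with earlier results known. CDKN1A, the inhibitor p21, had 14.1 ± 0.916 FPKM in shHMGB2 and 26.7 ± 3.05 in mock (SD, n = 3 each; log2 difference -0.88, limma adjusted p = 0.00303). CDKN1B, the inhibitor p27, had 53.7 ± 2.15 FPKM in shHMGB2 and 39.5 ± 2.72 in mock (SD, n = 3 each; limma adjusted p = 0.0122). CDKN1B lost its call when shHMGB2 replicate 1 or 2 was left out (adjusted p in limma 0.0526 and 0.0634). The p21 gene passed under all 17 alternatives.

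Of the 12 squamous markers, SOX2 was higher, KRT14, KRT6A, KRT17 and SFN were lower, and 7 did not pass, with a list median of 0.03 against 0.04 over all genes. That is 41.7% called, against 6.75% of all genes tested, in a short list chosen with earlier results of these data known. The basal keratin KRT14 had a log2 difference of -0.55 (limma adjusted p = 0.00532), the keratin KRT6A one of -0.54 (limma adjusted p = 0.00557) and SFN, an epithelial 14-3-3 protein, one of -0.50 (limma adjusted p = 0.0171). SFN did not pass without shHMGB2 replicate 1, 2 or 3 or mock replicate 2 (limma adjusted p from 0.0608 to 0.0748). A-type lamin levels vary with differentiation in many tissues, and the part of this difference in that of LMNA was not tested.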

How the data were processed

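Values were read from 1 table that the authors deposited for 6 KYSE450 libraries. It gives FPKM per library per the file headers, group values that behave as a normalized signal, and the authors' log2 fold change, p-value and adjusted p-value from a test the sources used here do not name. The submitters' processing notes list Bowtie2 2.2.5, RSEM 1.2.12 and hg38. The members and lists were chosen with earlier results of these data known.

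Genes averaging 1 FPKM or more (13409) were fitted as log2(FPKM + 1) by limma 3.58.1 (R 4.3.3), group being its only term and the prior variance following a trend on the mean. Adjusted p-values (Benjamini-Hochberg, 2-sided) covered all of them, with a threshold of 0.05. The pseudocount understates changes of low genes, and without read counts no counting interval was given. The fit was also run on simulated independent normal values with gene spreads shuffled, which checks the code and not its behaviour on these data. From each list the text takes up to 3 genes past the threshold by size of change, or the gene with the smallest p; the rule adds the 3 genes nearest to LBR, LEMD2, ANKLE2 and DHCR7. CBX3, ZMPSTE24, KRT17, SOX2, GTPBP1 and TMPO-AS1 were added after their values were seen. A gene that the rule takes is not reported here, though counts include it. Length and G and C content came from the longest GENCODE 29 transcript and covered 83.2% of genes tested. Alternatives changed the pseudocount, filter, scaling, variance model, threshold, block and libraries, or took the authors' deposited values in place of the fit; removal of the length and G and C trends was chosen after seeing the data. Gene positions and promoter windows are from RefSeq on GRCh38.p14.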

Additional observations from a re-analysis of the deposited data

How the results depend on the processing

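Of the 13409 genes tested, 905 passed as reported and 2034 at an adjusted p under 0.1. With 1 library left out, 288 to 868 passed. Other settings covered other sets of genes, so their counts are not shares of the same total. With no filter on low values, 412 passed among a larger set. With the length trend removed 1774 passed, and with the G and C trend removed 2052. Both of these fits rest on the 11155 tested genes with a transcript length. In the authors' deposited table, 2087 of 13585 genes passed. Of the 10 members, 2 passed as reported, 1 with no filter, 4 with the G and C trend removed (LBR, LMNA, LMNB1 and LMNB2) and 0 to 2 with 1 library left out. Of the 117 genes of the related lists, 9 passed as reported, 4 with no filter, 4 under median-of-ratios scaling, 17 and 26 with the length and the G and C trend removed, 19 at an adjusted p under 0.1, 22 in the authors' deposited table, and 2 to 8 with 1 library left out. Under median-of-ratios scaling, with no filter on low values, or with no mean-variance trend, NEMP1, TMEM43, NUP210 and CBX1 no longer passed. With the replicate block these counts were 372, 1 and 3, and CBX1, CBX5, NEMP1, NUP210, TMEM43 and LMNA no longer passed. Same-numbered libraries did not deviate together (r from -0.0959 to -0.0116), so the numbers are not taken as pairs. Signs changed for small values only: BANF1 was 0.021 with the length trend removed, LEMD3 -0.0074 under quantile normalization, -0.0018 with the G and C trend removed and -0.017 in the authors' deposited table, and SUN1 -0.0080 in the authors' deposited table and -0.0028 to 0.077 with 1 library left out. The order of the members' levels in mock was kept at all 10 ranks under upper-quartile and median-of-ratios scaling. The causes of these shifts were not tested. Read depth per library is unknown, which leaves the counting error of low genes unknown too.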
